A study of Mus musculus with 11 samples.

Results

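Thymic epithelial cells of NOD mice with at least 1 R249C copy of Aire were compared with those of NOD mice with none, by RNA sequencing. Every library whose title carries R249C was counted as a carrier, which gave 8 carriers against 3 WT/WT libraries, all 11 of the series. The carriers pool 5 libraries titled NOD.AireWT/R249C and 3 titled NOD.AireR249C/R249C, and the WT/WT libraries are titled NOD.AireWT/WT. NOD is an inbred strain prone to autoimmune diabetes, and all groups share that background, an age of 4 to 8 weeks and the same sort. Per the labels, CD45-expressing cells were depleted with magnetic beads, the remaining thymus cells were sorted for EpCAM, and libraries were built with a low-input kit. For WT/R249C replicates 4 and 5 the genotype field reads R249C/R249C and contradicts the title, but both labels make them carriers. Batch A holds 6 carriers and WT/WT replicate 1, and batch B holds the 2 carriers of contradicting label and WT/WT replicates 2 and 3, so each batch is a comparison with libraries of its own. All R249C/R249C libraries are in batch A. The titles number the libraries of a genotype as biological replicates, and nothing in the labels says how many mice a library pools.

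Aire is a transcriptional regulator of mature medullary thymic epithelial cells. It lets them express genes that are otherwise restricted to other tissues, so that developing T cells meet these proteins in the thymus. Its SAND domain is known to take part in chromatin binding and in the assembly of Aire multimers, and dominant missense variants of this domain are linked to autoimmune disease. The thymic medulla also holds B cells and plasma cells, thymocytes, fibroblasts and vessels, and a sort for EpCAM with CD45 depletion is meant to leave these out.

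The variant replaces an arginine of the SAND domain with cysteine. The reference codon is shown here because it is the position that sets the groups apart. It lies in exon 6 of Aire on the minus strand, at chr10:78039988-78039990 of GRCm38, inside the coding stretch chr10:78039967-78040011 printed 5′ to 3′ from GENCODE M21 with the codon in capitals. Which bases of the codon the mice have changed was not analysed here.
Aire: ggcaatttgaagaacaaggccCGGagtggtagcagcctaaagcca

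Library totals ran from 60560348 to 182319976 counts, and the mitochondrially encoded share ran from 2.05% to 6.16%. Values below are CPM (a library's counts scaled to a common total), and fold changes come from edgeR with batch as a term, on a log2 scale with positive values for higher levels in carriers. Epcam, the surface protein of the sort, was at 367, 380 and 450 CPM in the 3 WT/WT libraries, and its lowest, median and highest carrier values were 355, 462 and 521. Ptprc, which encodes CD45, was at 26.2, 13.6 and 22.7 CPM in WT/WT and at 0.217, 12.1 and 18.8 in carriers. Epcam was thus high in both groups and Ptprc was found in every library, so RNA of CD45-expressing cells was present after the sort. Other genes of such cells, antibody chains among them, reached levels above that of Epcam in WT/WT.

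Aire transcript was present in every library. It was at 312, 391 and 768 CPM in WT/WT replicates 1, 2 and 3 and at 174, 611 and 858 (lowest, median, highest) in carriers, so the groups overlapped. The log2 fold change was 0.27 (SE 0.51, 95% interval -0.87 to 1.42, edgeR adjusted p = 1). Within batch A it was 0.82 and within batch B -0.13, and without WT/WT replicate 1 it was -0.14. A missense variant need not alter the transcript level, so this level does not check the labels.

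Across all genes, edgeR called none of 26980 tested genes between carriers and WT/WT at an adjusted p under 0.05 (0%), and the smallest adjusted p was 0.277. At an unadjusted p under 0.05 there were 1099 genes (4.07%), 664 higher in carriers (2.46%) and 435 lower (1.61%). The other tools called more: limma voom called 9 genes (0.0334%), all lower in carriers, and DESeq2 called 281 of 24363 (1.15%), 156 higher (0.64%) and 125 lower (0.513%). In 280 genes (1.04%) the 8 carriers did not overlap the 3 WT/WT libraries in CPM, with all carriers above in 90 (0.334%) and all below in 190 (0.704%). These 280 genes include 48 of the DESeq2 calls.

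Antibody chains were lower in carriers, and of the 38 gene lists used here theirs had the median fold change farthest from 0. Immunoglobulins are made by B lineage cells, and in bulk by plasma cells, which secrete them. Of 103 tested immunoglobulin genes (constant chains, joining and variable segments and the J chain), 94 had a negative and 9 a positive fold change. The edgeR unadjusted p was under 0.05 for 36 of them, all lower in carriers (1.61% of all tested genes). In 21 the carriers lay below every WT/WT library (0.704% of all tested genes), and in none above. V segments make up 83 of the 103, 26 of the 36 and 11 of the 21, and those found mainly in WT/WT passed the filter on low counts through WT/WT. These counts are therefore a description of the genes that passed, and no support for a direction. Of the 9 limma voom calls 7 were immunoglobulin genes: Igkc, Igkj5, Igkv10-95, Igkv6-15, Ighv10-1, Ighv2-2 and Ighv1-26. Of these, 5 are V segments, for which the limit of the filter also holds, and edgeR called none. Igkv10-95 and Ighv1-26 overlapped between the groups. The other two, named here after their values were seen, were the gene models Gm10548 and Gm45164. In a bulk library, fewer cells of a type and less RNA per cell cannot be told apart.

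Igkc, the constant region of kappa light chains, was at 1610, 734 and 1863 CPM in WT/WT replicates 1, 2 and 3. In carriers it was at 69.2, 128 and 341 CPM (lowest, median, highest), so every carrier lay below the lowest WT/WT library. Its log2 fold change was -3.58 (SE 0.51, edgeR adjusted p = 0.338, limma voom adjusted p = 0.0374, DESeq2 adjusted p = 2.73e-08). It was -3.07 within batch A and -3.97 within batch B.

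Ighg2b, the constant region of an IgG heavy chain, had the smallest p of all genes. It was at 54.8, 102 and 48.3 CPM in WT/WT and at 0.413, 2.63 and 7.95 in carriers, with no overlap. The log2 fold change was -4.19 (SE 0.52, edgeR unadjusted p = 1.02e-05, adjusted p = 0.277, DESeq2 adjusted p = 2.9e-08), with -4.85 within batch A and -3.52 within batch B. It was also the 1 gene that edgeR called when genes under a mean of 10 CPM were left out (adjusted p = 0.031).

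The mucosal heavy chain Igha and the J chain, which joins IgA and IgM units into multimers, spread widely among carriers. Igha was at 816, 1064 and 2242 CPM in WT/WT and at 0, 89.3 and 262 in carriers. Jchain was at 658, 621 and 1086 CPM in WT/WT and at 0.325, 43.3 and 179 in carriers. Neither gene overlapped between the groups. Their log2 fold changes were -7.57 (SE 2.63) and -7.11 (SE 2.08), with edgeR adjusted p of 1 for both and DESeq2 adjusted p of 5.76e-04 and 1.46e-05. The within-batch values differed in size: -2.70 in batch A and -9.09 in batch B for Igha, and -2.77 and -8.62 for Jchain. The low values belonged to WT/R249C replicate 1 of batch A, at 0 CPM for Igha and 2.04 for Jchain. Both carriers of batch B were also low, at 2.47 and 3.37 CPM for Igha. By title, mean CPM in WT/R249C and R249C/R249C was 36.9 and 198 for Igha, and 37.8 and 138 for Jchain. Ighg2b went the other way, at 3.64 and 2.14. The batch B carriers, of contradicting label, count as WT/R249C in these means. Whether the number of R249C copies bears on these levels was not tested. With 1 library left out the fold change ran from -9.10 (without WT/WT replicate 1) to -5.62 (without WT/R249C replicate 4) for Igha and from -8.62 (without WT/WT replicate 1) to -5.10 (without WT/R249C replicate 5) for Jchain.

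Of the 13 constant and joining chains 12 were tested, and 11 had a negative fold change (48.8% of all tested genes) and 1 a positive one (51.2%). The median log2 fold change of the list was -4.57, with -2.36 within batch A and -4.91 within batch B, against 0.02 for all tested genes. Summed over the list, the constant chains took 3322, 3406 and 6229 CPM in WT/WT and 123, 299 and 944 CPM in carriers. It was the only one of the 38 lists whose sum did not overlap between the groups. Iglc2, a lambda constant region, was the remaining member without overlap beside Igkc, Ighg2b, Igha and Jchain, at 10.6, 10.7 and 9.13 CPM against 0.058, 0.467 and 8.37. Ighm, the heavy chain of IgM and of naive B cells, overlapped, at 17.3, 28.6 and 29.0 CPM against 4.34, 15.0 and 20.5 (log2 fold change -0.78, SE 0.49, and -1.40 without WT/R249C replicate 4). Iglc3 was the 1 member with a positive fold change (0.55, SE 0.70).

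**Figure D1:**
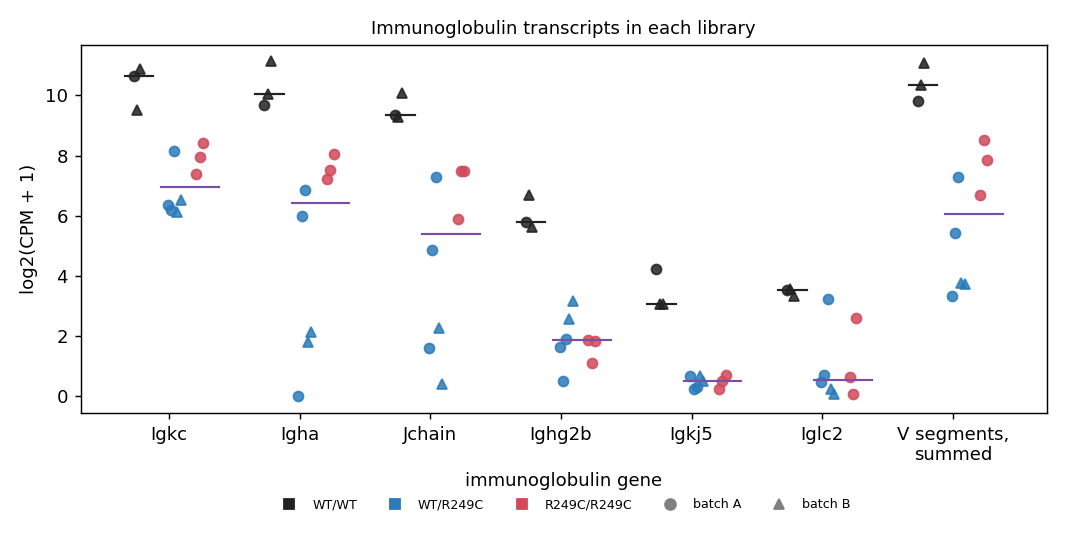
Level of 6 immunoglobulin genes and of all V segments together in each library, as log2(CPM + 1). Points are libraries, coloured by genotype and shaped by batch, and lines mark the median of WT/WT and of carriers; in all 7 columns every carrier lies below every WT/WT library.

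Antibody light chains arise from 1 V segment, 1 J segment and the constant region, so segments show which rearranged chains a library holds. Igkj5, the last functional kappa joining segment before Igkc, is shown because its p was the next smallest after Ighg2b. Its 38 bases lie at chr6:70723886-70723923 of GRCm38 on the plus strand.
Igkj5: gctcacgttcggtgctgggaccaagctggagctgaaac
Igkj5 was at 17.9, 7.38 and 7.39 CPM in WT/WT and at 0.178, 0.412 and 0.631 in carriers, and the groups did not overlap. The log2 fold change was -4.75 (SE 0.66, edgeR adjusted p = 0.327, limma voom adjusted p = 0.0374, DESeq2 adjusted p = 4.32e-09), -5.59 within batch A and -3.85 within batch B.

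Among V segments, 3 kappa segments of family 6 had the smallest p. They are near copies of each other, so 90 coding bases from the same offset after the start codon are shown, with the bases that differ among the 3 in capitals. The stretches are chr6:70406606-70406695 (minus strand), chr6:70371767-70371856 (plus strand) and chr6:70260546-70260635 (minus strand) of GRCm38, in exon 2 of each segment.
Igkv6-15: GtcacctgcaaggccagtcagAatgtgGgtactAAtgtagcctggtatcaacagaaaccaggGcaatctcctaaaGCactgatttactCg
Igkv6-17: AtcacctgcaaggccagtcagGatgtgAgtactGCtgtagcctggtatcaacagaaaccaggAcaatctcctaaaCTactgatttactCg
Igkv6-23: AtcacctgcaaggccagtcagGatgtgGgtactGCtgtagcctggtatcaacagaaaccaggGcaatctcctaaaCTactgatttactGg
Over the 347 coding bases of each, Igkv6-15 was identical to Igkv6-23 at 94.5% of positions and to Igkv6-17 at 90.8%. The counting can split reads between such copies, so the value of any 1 segment is uncertain.

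Igkv6-15 was at 35.8, 41.7 and 4.37 CPM in WT/WT, and 7 of the 8 carriers had no count, the other being at 0.142 CPM. Igkv6-23 was at 52.5, 56.1 and 0.592 CPM in WT/WT and at no more than 0.125 CPM in carriers, with 6 carriers at 0. Igkv6-17 was low in all libraries, at 0.473, 0.186 and 0.993 CPM in WT/WT and at most 0.00966 CPM in carriers. Igkv4-54 was at 1.76, 0.178 and 2.76 CPM in WT/WT and at most 0.0193 CPM in carriers. None of these 4 segments overlapped between the groups, their edgeR adjusted p was at most 0.803, and limma voom called Igkv6-15 alone of the 4. With most carriers at 0, their fitted fold changes rest on the prior count and are not given.

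The table lists 348 V segments, of which 217 had a count and 83 passed the filter on low counts. A segment found mainly in WT/WT passes that filter through WT/WT, so the 75 of 83 with a negative fold change are a description of those that passed. The sum over all V segments does not depend on the filter. It was 899, 1305 and 2138 CPM in WT/WT and 9.09, 72.6 and 368 CPM in carriers, again without overlap. The number of segments over 1 CPM was 70, 36 and 75 in WT/WT and 1, 5.5 and 18 (lowest, median, highest) in carriers.

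The segments found differed from carrier to carrier. Of the 47 segments over 1 CPM in at least 1 carrier, 41 were over it in 1 carrier only, and 11 in no WT/WT library. In WT/WT, 17 of 110 segments over 1 CPM were so in all 3 libraries. The leading segment was Ighv7-1 in R249C/R249C replicate 1, with 37.9% of the V segment CPM, Iglv1 in R249C/R249C replicate 2, with 54.7%, and Igkv10-96 in WT/R249C replicate 3, with 20.5%. The 5 highest segments took 39.6% to 96.6% of the V segment CPM in carriers and 37.5%, 70.8% and 50.3% in WT/WT, so this share overlapped. R249C/R249C replicate 2 was the only carrier with a high level of the lambda genes Iglv1, at 201.5 CPM, and Iglc1, at 242 CPM. In WT/WT replicate 1 the same genes were at 27.1 and 2.17 CPM, and in replicates 2 and 3 Iglv1 was at 692 and 620 CPM and Iglc1 at 783 and 711.

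**Figure D2:**
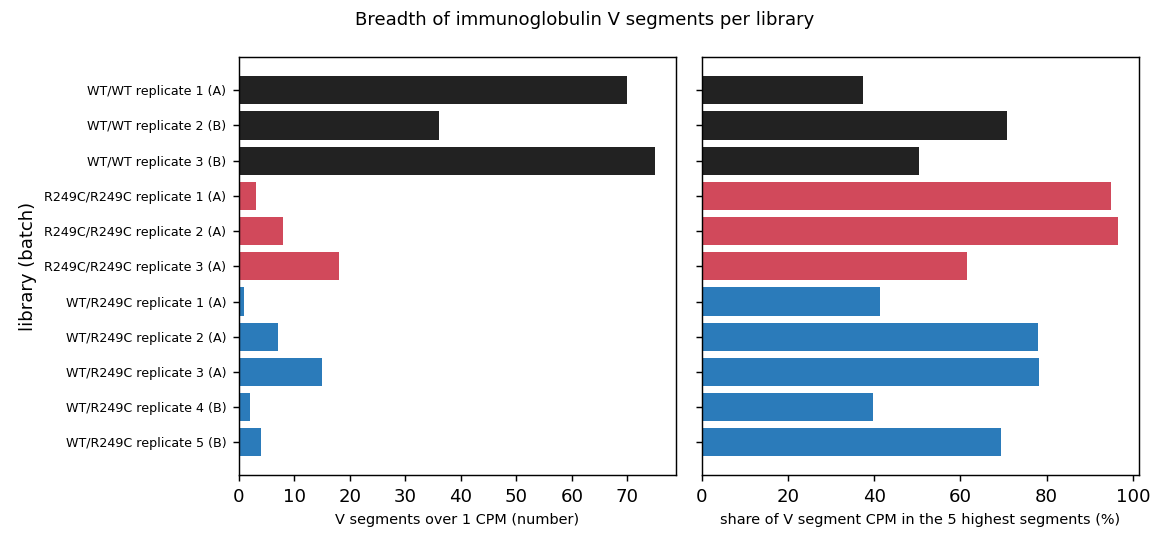
Number of immunoglobulin V segments over 1 CPM in each library (left) and the share of V segment CPM held by the 5 highest segments in percent (right). Bars are libraries with the batch in brackets; the 3 WT/WT libraries hold 36 to 75 segments over 1 CPM and the carriers 1 to 18, while the shares overlap.

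Other genes of B lineage cells were mixed. Their list median lay near 0, while Cd79a, Mzb1 and Ms4a1 lay below all WT/WT libraries in most carriers. Of 21 tested B cell and plasma cell markers 12 had a negative and 9 a positive fold change, with a median of -0.10. At an edgeR unadjusted p under 0.05 were 2, both lower (1.61% of all tested genes). The summed level of all markers was 881, 713 and 860 CPM in WT/WT and 605, 725 and 910 in carriers. Xbp1, which epithelium also expresses, held 326 CPM of the WT/WT mean of 818. No marker other than Cd79a lacked overlap (0.704% of all tested genes lay lower without overlap). Cd79a, a signalling chain of the B cell receptor, was at 10.1, 6.98 and 8.44 CPM in WT/WT and at 0, 1.84 and 4.99 in carriers (log2 fold change -2.17, SE 1.70). Its partner chain Cd79b was at 11.2, 25.9 and 29.7 CPM against 1.96, 11.998 and 43.2, which overlapped. The B cell surface protein Ms4a1 was at 2.17, 5.18 and 0.636 CPM in WT/WT and had no count in 6 of the 8 carriers, with up to 1.19 CPM in the others. Mzb1, a chaperone of antibody assembly, was at 11.3, 19.9 and 39.5 CPM against 0, 1.05 and 13.0, with 7 carriers below all WT/WT libraries. Xbp1, a regulator of secretory cells that epithelium also expresses, was at 341, 304 and 334 CPM against 212, 248.5 and 327 (log2 fold change -0.40, SE 0.14).

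Thymocyte genes lay lower in carriers in most members, with smaller differences. Of 24 tested members 21 had a negative fold change, and the median was -0.76 (batch A -0.66, batch B -0.82). At an edgeR unadjusted p under 0.05 were 3, all lower (1.61% of all tested genes). The summed level was 650, 437 and 502 CPM in WT/WT and 203, 375 and 525.6 in carriers, with 6 carriers below all WT/WT libraries. Cd3g, a chain of the T cell receptor complex, was at 50.03, 20.2 and 36.1 CPM in WT/WT and at 5.09, 12.1 and 16.7 in carriers. It was the 1 member without overlap (0.704% of all tested genes lay lower without overlap). Its log2 fold change was -1.84 (SE 0.39, edgeR adjusted p = 1, DESeq2 adjusted p = 0.00245), -1.997 within batch A and -1.71 within batch B. Lck, the kinase of that complex, was at 102, 89.3 and 79.7 CPM against 39.2, 61.4 and 80.7 (log2 fold change -0.73, SE 0.20). The regulator Bcl11b was at 85.1, 39.2 and 30.3 CPM against 28.5, 35.0 and 50.6, and its fold change was -1.12 within batch A and -0.11 within batch B.

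Lists of other cells that the sort could hold did not separate the groups. Fibroblast and matrix genes had a median of -0.47 over 18 tested members, made of 0.06 within batch A and -0.93 within batch B. The collagen Col1a2 was at 76.3, 142 and 99.1 CPM in WT/WT and at 13.3, 36.7 and 125 in carriers, and the surface protein Thy1 at 26.1, 25.1 and 23.4 CPM against 9.48, 12.9 and 29.0. Myeloid genes had a positive fold change in 15 of 19 tested members, but 8 of the 19 had opposite signs in the batches, and the median was 2.48 within batch A and 0.21 within batch B. Their summed level was 121, 335 and 398 CPM in WT/WT and 110, 272 and 361 in carriers, with a lower mean in carriers (248.4 against 284.4). Fcgr1, an antibody receptor of macrophages, had no count in WT/WT and was present in 5 of 8 carriers at up to 5.21 CPM. That is at least 197-fold higher over the group (against a floor of 3 counts over the 3 WT/WT libraries). Fcgr1 passed the filter on low counts through carriers, so these values are a description. Vessel genes had a positive fold change in 11 of 14 members, while their summed level was below all WT/WT libraries in 6 of 8 carriers and above them in 2 (1134, 1461 and 1118 CPM against 808, 1096 and 1745). The pericyte receptor Notch3 was at 39.1, 4.30 and 14.0 CPM against 0.614, 6.70 and 20.5. Whether the content of these cells bears on the differences named here was not tested.

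Cortical epithelial genes lay higher in carriers in most members. Cortical epithelium positively selects thymocytes and attracts their precursors. Of 19 tested members 15 had a positive fold change, with a median of 0.45 (batch A 0.11, batch B 0.59). However, 8 of the 19 had opposite signs in the batches, and 10 were higher in both. At an edgeR unadjusted p under 0.05 were 5, all higher (2.46% of all tested genes). Their summed level was 5065, 5772 and 6206 CPM in WT/WT and 5432, 6829 and 9596 in carriers, with 6 carriers above all WT/WT libraries. Enpep, a surface peptidase of cortical epithelium, was at 18.98, 15.8 and 22.1 CPM in WT/WT and at 24.7, 34.6 and 44.3 in carriers. It was the 1 member without overlap (0.334% of all tested genes lay higher without overlap). Its log2 fold change was 0.91 (SE 0.25, edgeR adjusted p = 1, DESeq2 adjusted p = 0.0495), 0.79 within batch A and 1.02 within batch B.

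The other members of this set at an unadjusted p under 0.05 overlapped. The keratin Krt8 was at 428, 699 and 1105 CPM against 703, 1031 and 1334 (log2 fold change 0.82, SE 0.25, DESeq2 adjusted p = 0.0455). Ccl25, the chemokine that draws T cell precursors, was at 178, 468 and 405 CPM against 261, 523 and 773 (1.02, SE 0.34). The protease Ctsl, which prepares peptides for class II molecules in the cortex, was at 295, 424 and 336 CPM against 299, 667 and 939 (1.03, SE 0.39). Tbata was at 418, 514 and 593 CPM against 392, 675 and 1020 (0.68, SE 0.22). For each of these genes WT/WT replicate 1 of batch A gave the lowest of the 3 WT/WT values. Epithelial adhesion genes had a positive fold change in 13 of 16 members, with a median of 0.24, and 7 of the 16 had opposite signs in the batches. Krt8 and Epcam (0.31, SE 0.13) were the 2 at an unadjusted p under 0.05, both higher (2.46% of all tested genes).

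Mature medullary genes did not lie on the same side in both batches. The median over 19 members was 0.35, with 0.71 within batch A and -0.03 within batch B, and the summed levels overlapped. The class II chain H2-Eb1 was at 518, 846 and 1022 CPM in WT/WT and at 479, 1212 and 1624 in carriers (log2 fold change 0.84, SE 0.36). The histone deacetylase Hdac3, which takes part in the medullary programme, was at 189, 130 and 133 CPM against 83.1, 130 and 173 (-0.44, SE 0.15). The chemokine Ccl22 was at 51.7, 81.1 and 52.2 CPM against 11.5, 29.9 and 52.4, with 7 carriers below all WT/WT libraries (-0.82, SE 0.38).

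Genes known to need Aire did not separate carriers from WT/WT. Of 34 listed genes 30 were tested, 22 had a positive fold change, with a median of 0.58, and none was at an edgeR unadjusted p under 0.05 (none was called by edgeR, limma voom or DESeq2). Their summed level was 194, 482 and 598 CPM in WT/WT and 161, 333 and 720 in carriers. WT/WT replicate 1 had the lowest value of its group for this sum as it did for Aire. The milk protein Csn2 was at 22.4, 94.4 and 104 CPM against 37.5, 80.7 and 221, and the airway and salivary protein Bpifb1 at 4.64, 6.04 and 18.8 CPM against 3.02, 8.24 and 76.2. For both genes the groups overlapped. Fabp5, a fatty acid carrier that depends on the regulator Fezf2, was at 95.6, 156 and 214 CPM against 137, 173 and 379 (log2 fold change 0.86, SE 0.26). Tspan7, an islet autoantigen, was at 48.9, 56.6 and 45.1 CPM against 53.3, 77.0 and 109, with 7 carriers above all WT/WT libraries (0.72, SE 0.27). Of 10 tested islet autoantigens 7 had a positive fold change, but 7 had the higher mean CPM in WT/WT. Opposite signs in the batches were found in 7 of the 10. The list median was 1.21 within batch A and -0.115 within batch B, and the summed levels overlapped.

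The number of genes found per library, a summary that promiscuous expression feeds, was alike in range. After each library was thinned to the smallest total, 24448, 24147 and 29405 genes had a count in WT/WT, and 22101, 26364 and 30094 (lowest, median, highest) in carriers. The means differed by 60.9 genes (exact permutation test within batches, two-sided, p = 0.976, smallest possible 0.0238).

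A few tissue genes had counts in carriers and none in WT/WT. Of 26980 tested genes, 678 had no count in all libraries of 1 group, carriers or WT/WT. Genes without a count in WT/WT passed the filter on low counts through carriers. Casp14, a caspase of skin barrier formation, had no count in the 3 WT/WT libraries and was present in 7 of 8 carriers, with a median of 2.95 and a maximum of 15.6 CPM, at least 583-fold higher over the group (DESeq2 adjusted p = 9.69e-06, edgeR adjusted p = 1). Apob, a liver and gut lipoprotein, was present in 5 of 8 carriers at up to 5.11 CPM, and Cela3b, a pancreatic elastase, in 4 of 8 at up to 2.18 CPM. With 8 carriers and 3 WT/WT libraries, the larger group has more libraries in which a sporadic gene can appear.

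**Figure D3:**
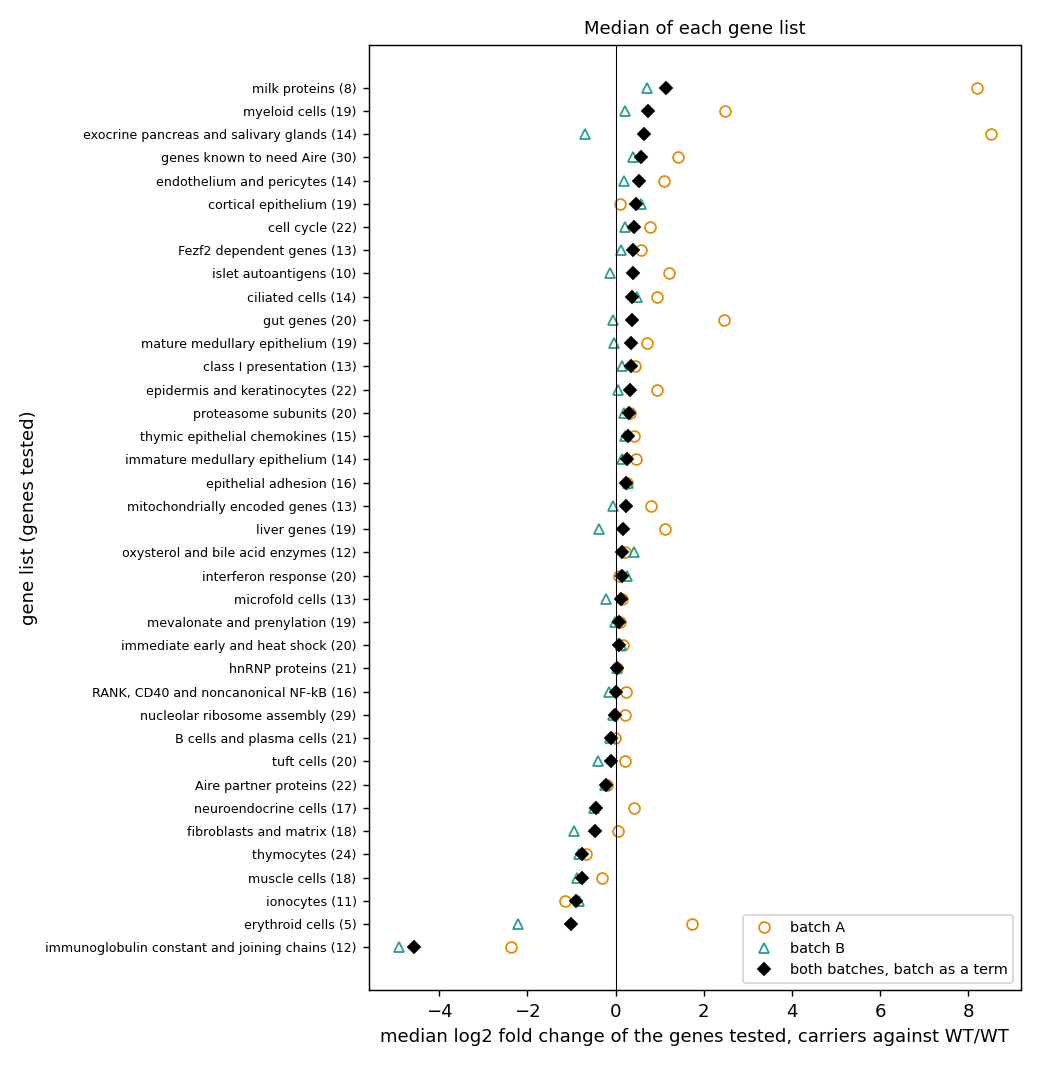
Median log2 fold change of the tested genes of each of 38 gene lists, carriers against WT/WT, in batch A (circles), in batch B (triangles) and with batch as a term (diamonds). The immunoglobulin constant chains lie at -4.57 with both batches below -2, and the other lists lie between -1.005 and 1.15 with both batches fitted.

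Genes with positive fold changes and the smallest p came from several pathways. Hsd3b7, which acts in bile acid synthesis and inactivates an oxysterol that guides lymphocytes, was at 13.6, 7.60 and 13.1 CPM in WT/WT and at 21.1, 34.4 and 54.1 in carriers, with no overlap. Its log2 fold change was 1.71 (SE 0.32, edgeR adjusted p = 0.803, DESeq2 adjusted p = 2.56e-04), 1.14 within batch A and 2.28 within batch B. Of the 12 tested oxysterol and bile acid genes it was the 1 at an unadjusted p under 0.05, higher in carriers (2.46% of all tested genes). Fads1, a fatty acid desaturase, was at 12.2, 7.42 and 9.70 CPM against 17.1, 24.5 and 31.4, with no overlap and a log2 fold change of 1.24 (SE 0.28, DESeq2 adjusted p = 0.00185). Hnrnpdl, a splicing regulator, was at 57.2, 81.3 and 88.8 CPM against 91.3, 123 and 140, with no overlap and a log2 fold change of 0.85 (SE 0.18, DESeq2 adjusted p = 8.28e-04).

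The other hnRNP proteins lay on both sides of 0. Over 21 members the median was 0.03, with 12 above and 9 below 0. At an unadjusted p under 0.05 were 3 (4.07% of all tested genes). Hnrnpdl and Hnrnpc (0.39, SE 0.17) had positive and Hnrnpul1 (-0.54, SE 0.21) negative values. Among 22 listed partner proteins of Aire 7 had a positive and 15 a negative fold change, with a median of -0.22. The RNA helicase Ddx5 was the 1 of them at an unadjusted p under 0.05, higher in carriers (2.46% of all tested genes). It was at 791, 908 and 962 CPM against 856, 1087 and 1274 (0.38, SE 0.14).

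Proteasome subunits, which cut proteins into peptides for class I molecules, had a positive fold change in 18 of 20 members, with a median of 0.30. Psmb4 was at 52.4, 108 and 114 CPM in WT/WT and at 104, 117 and 181 in carriers, so 4 of 8 carriers lay above all WT/WT libraries. Its log2 fold change was 0.88 (SE 0.17, edgeR adjusted p = 0.821, DESeq2 adjusted p = 3.47e-06). Psma6 (0.37, SE 0.16) and Psma4 (0.27, SE 0.12) were the other members at an unadjusted p under 0.05, all higher (2.46% of all tested genes). Genes of class I presentation had a positive fold change in 12 of 13 members, with a median of 0.34, and 6 of the 13 had opposite signs in the batches. The peptide transporter Tap2 was at 271, 306 and 331 CPM against 318, 384 and 467, and the class I light chain B2m at 631, 1681 and 1800 CPM against 801, 2471 and 3189. The summed levels of both sets overlapped between the groups, and WT/WT replicate 1 had the lowest sum of all libraries in each.

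Interferon and cell cycle genes gave 3 members each at an unadjusted p under 0.05, of 20 and 22 tested. All had positive fold changes, and 2.46% of all tested genes were higher at such a p. The antiviral protein Mx1 was at 7.85, 14.4 and 14.9 CPM in WT/WT and at 13.6, 18.1 and 40.5 in carriers (log2 fold change 1.05, SE 0.34). The chemokines Cxcl10 and Cxcl9 had log2 fold changes of 0.79 (SE 0.30) and 0.91 (SE 0.39). The mitotic genes Ube2c, Ccnb1 and Cenpf had log2 fold changes of 1.82 (SE 0.65), 1.09 (SE 0.44) and 1.35 (SE 0.60). Without WT/WT replicate 1, Ube2c was at 1.16 and Cenpf at 0.61, and within batch A they were at 2.77 and 2.49. The list medians were 0.15 for interferon and 0.42 for cell cycle, and none of these 6 genes was called by edgeR, limma voom or DESeq2.

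Further genes with positive fold changes and the smallest p were not members of one family. Pdcd11, a ribosome assembly factor, was at 4.97, 16.9 and 18.3 CPM against 16.6, 25.7 and 35.7 (log2 fold change 1.49, SE 0.34). Within batch A it was 2.22 and within batch B 0.97, and it was 0.97 without WT/WT replicate 1. The ribosomal protein paralog Rpl22l1 was at 24.2, 42.7 and 49.2 CPM against 46.2, 63.3 and 82.3 (0.95, SE 0.20). The sphingosine phosphate receptor S1pr3 was at 34.6, 51.6 and 105 CPM against 68.6, 98.7 and 184 (1.17, SE 0.26). Xrcc2, a factor of recombination repair, had no count in WT/WT and was present in 7 of 8 carriers with a median of 4.93 CPM, at least 685-fold higher over the group (DESeq2 adjusted p = 1.56e-07, edgeR adjusted p = 1). The carrier without a count was WT/R249C replicate 3, so a level of 0 also occurred among carriers. That library has the lowest total, and 3 counts in it equal 0.0495 CPM. Xrcc2 passed the filter on low counts through carriers, so its values are a description and no support for a direction.

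At any level, 166 of all tested genes (0.615%) lacked overlap and passed a log2 difference of 1 within each batch in the same direction. At a mean of 10 CPM or more these were 9 higher and 10 lower, of 10951 genes at that level. Among those higher beside Hsd3b7 and Fads1 were Mageh1, the clock factor Arntl2, the ubiquitin ligase part Fbxo8, Lysmd4, the RNA-binding protein Samd4 and the metabolic kinase Pdk4. Mageh1 was at 13.3, 10.8 and 13.1 CPM in WT/WT and at 18.3, 31.8 and 49.5 in carriers, with log2 fold changes of 1.29 in batch A and 1.30 in batch B. Fbxo8 was at 16.7, 16.5 and 16.9 CPM against 21.5, 35.4 and 66.1. Arntl2, Lysmd4, Samd4 and Pdk4 had log2 fold changes of 1.33 (SE 0.37), 1.62 (SE 0.45), 1.28 (SE 0.38) and 2.11 (SE 0.68). Lysmd4 was at 2.41 within batch A and 1.06 within batch B, and Pdk4 at 2.77 and 1.64. With 1 library left out, Lysmd4 ran from 1.06 (without WT/WT replicate 1) to 1.94 (without WT/R249C replicate 4) and Pdk4 from 1.63 (without WT/WT replicate 1) to 2.96 (without WT/WT replicate 3). The cholesterol enzyme Hmgcs1 also lacked overlap, at 43.6, 73.8 and 72.6 CPM against 77.3, 88.3 and 125, with 1.12 within batch A and 0.27 within batch B.

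Among genes lower in carriers outside the antibody chains, Lman2l, which carries glycoproteins through the secretory path, did not overlap. It was at 87.4, 72.4 and 80.6 CPM in WT/WT and at 38.6, 54.3 and 59.8 in carriers. Its log2 fold change was -0.72 (SE 0.14, edgeR adjusted p = 0.821, DESeq2 adjusted p = 9.69e-06), -0.71 within batch A and -0.72 within batch B. Atad2b, a bromodomain protein, was at 37.1, 40.6 and 30.0 CPM against 9.58, 12.8 and 21.3 (-1.43, SE 0.29, DESeq2 adjusted p = 0.00302), with -1.40 and -1.46 within the batches. Cmtm4, a membrane protein that stabilises PD-L1, was at 29.1, 15.1 and 12.2 CPM against 1.75, 7.98 and 9.05 (-1.57, SE 0.51).

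Genes of the medulla's specialised cells gave few members without overlap. Plcb2, a phospholipase of tuft cell signalling that leukocytes also express, was at 29.2, 53.1 and 79.7 CPM in WT/WT and at 4.61, 12.2 and 28.1 in carriers (log2 fold change -1.61, SE 0.46, with -1.55 and -1.66 within batches A and B). The tuft cell list itself had a median of -0.11 over 20 members, 9 above and 11 below 0. Muscle genes had a negative fold change in 14 of 18 members, but 8 of the 18 had opposite signs in the batches. The actin Acta1 was the 1 without overlap (0.704% of all tested genes lay lower without overlap). It was at 33.0, 25.9 and 54.7 CPM against 5.67, 16.4 and 24.7. Ionocyte genes had a negative fold change in 9 of 11 members, with 7 carriers below all WT/WT libraries in their sum. The potassium channel Kcnma1 (-0.63, SE 0.26) was the 1 at an unadjusted p under 0.05, lower in carriers (1.61% of all tested genes). Neuroendocrine genes had a negative fold change in 12 of 17 members, but 11 of the 17 had opposite signs in the batches. Their median was 0.42 within batch A and -0.49 within batch B. The granin Scg3 was at 3.53, 1.80 and 0.400 CPM against no count in 6 of 8 carriers. The macrophage gene Aif1, at 7.84, 7.42 and 6.20 CPM against 0, 2.70 and 4.67, and the liver protein Apoh, at 7.99, 6.77 and 5.06 CPM against 0.143, 1.51 and 4.32, also lacked overlap.

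**Figure D4:**
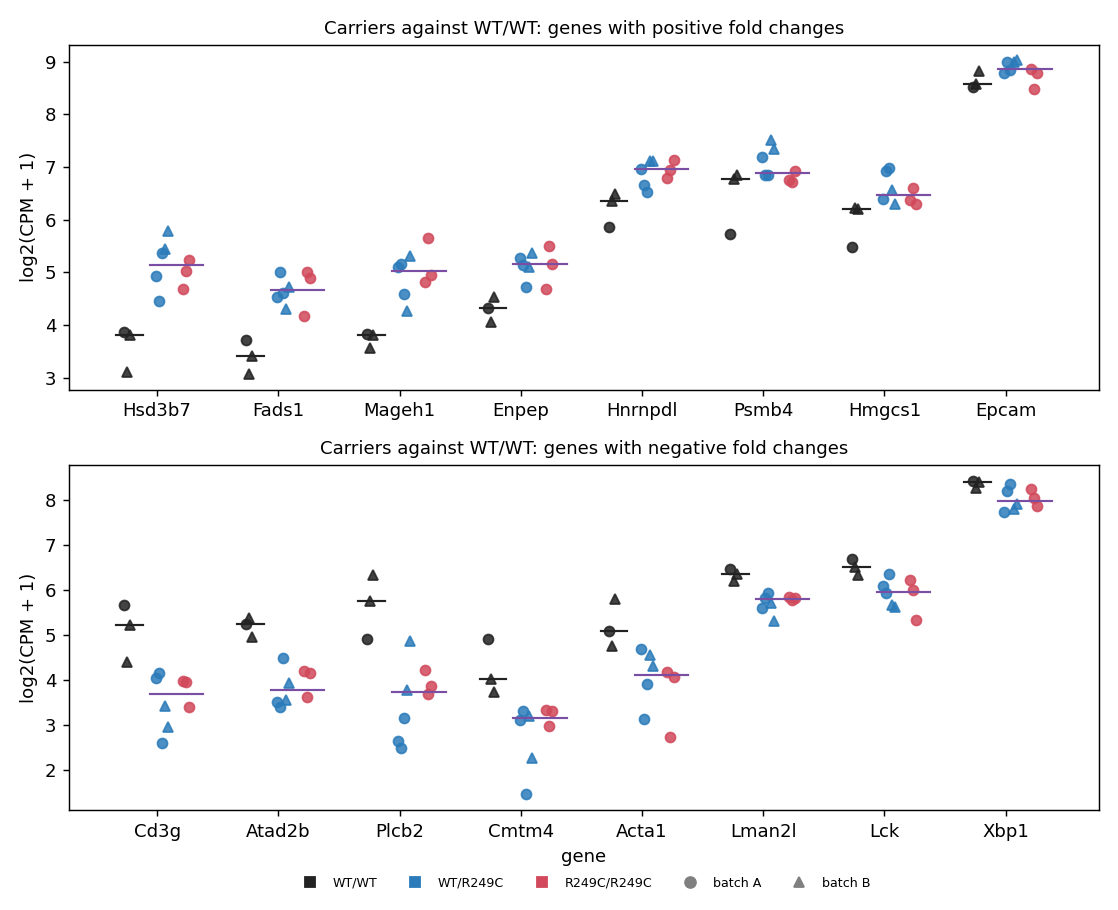
Level of 16 genes in each library as log2(CPM + 1), 8 with positive (top) and 8 with negative fold changes (bottom). Points are libraries, coloured by genotype and shaped by batch, with lines at the medians of WT/WT and of carriers; Psmb4, Epcam, Lck and Xbp1 overlap between the groups and the other 12 do not.

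The batches share no library, so each gives its own fold change for every gene. Over all 26980 tested genes 49.4% had the same sign in both batches, and over the 10951 genes at a mean of 10 CPM or more 51.4% did. Pearson's r between the batches' fold changes was -0.025 across all genes and 0.023 across the 10951, as a description over genes that are not independent. Of 19 immunoglobulin genes at that level 13 were lower in both batches. Some of the 19 reach that mean through WT/WT alone, so this count is a description and no support for a direction. Of the 38 lists, 14 had medians of opposite sign in batches A and B, the mature medullary and fibroblast lists among them. The test of the difference between batches (the batch by carrier interaction) called none of 26980 genes by edgeR, with 1383 at an unadjusted p under 0.05, and 1420 by DESeq2. Without WT/R249C replicate 4, edgeR called 68.

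**Figure D5:**
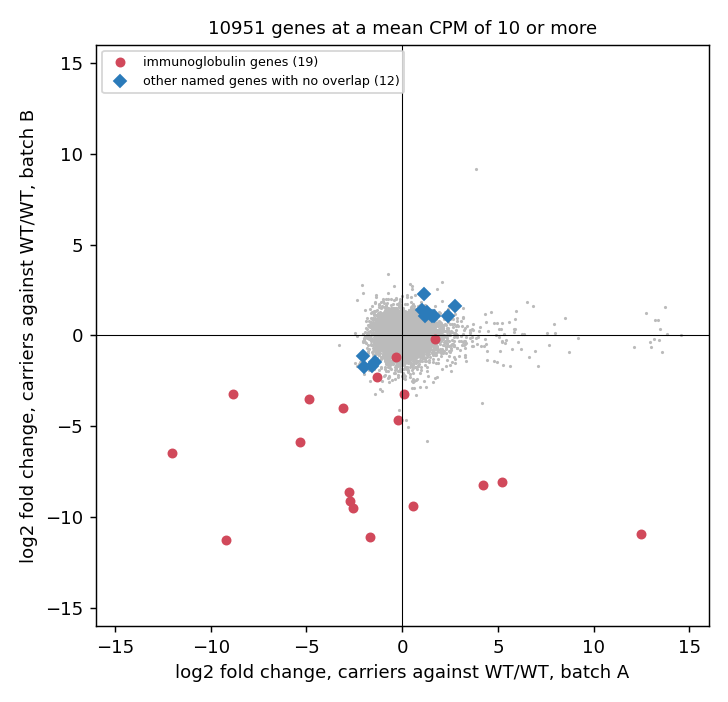
Log2 fold change of carriers against WT/WT within batch A (x axis) and within batch B (y axis) for the 10951 genes at a mean of 10 CPM or more (grey). Red circles are 19 immunoglobulin genes, 13 of them lower in both batches, and some of the 19 reach that mean through WT/WT alone. Blue diamonds are 12 other named genes, chosen because carriers and WT/WT did not overlap and both batches passed 1. The cloud of all genes shows no common direction.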

How the data were processed

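RNA from sorted thymic epithelial cells was sequenced in 11 libraries. The authors deposited a matrix of raw counts, whole numbers for each gene and library. The submitters' processing notes name FastQC, HISAT2, StringTie and the mm39 build. The sources used here do not say how the authors derived the counts from the alignments or whether strand was used. The tests used edgeR 4.0.16 in R 4.3.3 (quasi-likelihood, robust, TMM, filterByExpr), with batch and carrier status as terms and Benjamini-Hochberg adjustment at 0.05. Batch A holds the columns marked as trimmed in their names and batch B the rest. Alternatives were DESeq2 1.42.0, limma 3.58.1 (voom with quality weights), other filters, each batch alone, no batch term, replicate blocks and leaving out each library. The edgeR fit without the robust option was chosen after seeing the data. CPM used library totals, and genes without a count in a group were compared with a floor of 3 counts over that group. The model code was tested on simulated data.

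The genes named come from Aire, the 8 with the smallest edgeR p in each direction, up to 8 in each direction without overlap that passed 1 in log2 within both batches at a mean of 10 CPM, and up to 4 of each list, leaving out gene models. Genes named beyond that rule were chosen after their values were seen. The groups compared and the lists were chosen with earlier results of these data known. Of 678 list entries 677 matched a gene of the table. Sequences come from GENCODE M21 on GRCm38, which is not the build of the counts, and no coordinate was taken from one to the other.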

Additional observations from a re-analysis of the deposited data

Results flagged for a closer look

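In 23 of 99 values checked, 1 carrier stood apart from the other 7 by more than Dixon's 95% critical value, which chance passes in about 1 in 20 groups. Many of these are segments or genes at 0 in most libraries. R249C/R249C replicate 2 stood high for the lambda genes Iglc1 (242.0 CPM, next 4.61) and Iglv1 (201.5 CPM, next 26.4), for Igkv6-17 (0.009665 CPM), Igkv4-54 (0.01933 CPM) and the collagen Col1a2 (125.3 CPM, next 42.6). R249C/R249C replicate 3 stood high for Ighg2c (8.527 CPM), Ighv10-1 (0.5438 CPM) and Ighv2-2 (0.8592 CPM). R249C/R249C replicate 1 stood high for Igkv6-15 (0.1423 CPM) and Scg3 (0.774 CPM).

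WT/R249C replicate 3 stood high for Igkv10-95 (1.684 CPM), Ighv1-26 (18.48 CPM), Mzb1 (13.04 CPM), Cd79b (43.23 CPM), Casp14 (15.57 CPM), Arntl2 (39.99 CPM) and Hnrnpul1 (216.9 CPM). WT/R249C replicate 5 stood high for Igkv6-20 (0.5895 CPM), Bpifb1 (76.22 CPM), S1pr3 (184.1 CPM), Mx1 (40.47 CPM) and Fcgr1 (5.209 CPM). WT/R249C replicate 1 stood high for Apob (5.106 CPM). For Iglc1, Iglv1, Ighg2c and Ighv1-26, among others, the high carrier still lay below the highest WT/WT library.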

How the results depend on the processing

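The count of genes called between carriers and WT/WT was 0 with edgeR and stayed at 0 without any 1 of the 11 libraries (0 to 0), where the smallest adjusted p ran from 0.0516 to 0.987. It was 1 with genes under a mean of 10 CPM left out, 9 with limma voom and 281 with DESeq2, and the cause was not tested. The replicate block on the title number gave 0 calls (smallest adjusted p = 0.501), and the block on the library number gave 0 (1). The deviations of same-numbered libraries from a fit of batch and genotype had correlations of -0.215 to 0.141 by title number. By library number they ran from -0.314 to 0.141. That fit itself pushes some of these values below 0, so they cannot tell whether the numbers pair the libraries. The batch by carrier interaction gave 0 calls, 1420 with DESeq2 and 0 to 68 with 1 library left out, 68 being without WT/R249C replicate 4. Aire had a log2 fold change of -0.1335 in batch B alone and of -0.1359 to 0.6147 with 1 library left out. The difference in genes detected was -298.8 without thinning and -865.6 to 1763.4 with 1 library left out. Of 2129 values of 86 single genes under the alternatives, 2082 kept their direction and side of the threshold, 37 passed it (29 with DESeq2, 7 with limma voom, 1 with the CPM filter) and 10 changed sign, in 4 genes. Iglc1 was at 4.23 in batch A alone and 4.233 without the libraries of contradicting label, and Iglv1 at 0.5598 and 0.5626. Cd79b was at 0.3625 and 0.3713 in the same settings and at 0.4204 under the replicate block. Iglc3 was at -0.3114 with no batch term, -0.203 in batch B alone and -0.2036 (without WT/WT replicate 1) to 0.9159 with 1 library left out. With 1 WT/WT library in batch A, that batch's values rest on it, and at 0 to a few counts per library a single V segment's fold change is not measurable.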
